A study of Homo sapiens with 12 samples.

Results

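The genes GPNMB, TIPRL, KAT2B, MESD, TMEM134, CERS6, ARL1, STK39, HOPX and LGALS8 had messenger RNA levels that fell at least as far as that of serum response factor (SRF) when SRF was silenced in LNCaP cells, an androgen-sensitive line from a human prostate adenocarcinoma. They were picked for a large fall in both hormone treatments, so the falls below are a description and carry no test. The 10 genes were found by symbol among the 19775 genes with a probe set of their own on the array, through 32 probe sets, of which 25 passed a filter on low values (a log2 level above 4 on at least 3 of the 12 arrays). The series holds 4 groups of 3 arrays each: SRF siRNA with R1881, control siRNA with R1881, SRF siRNA with ethanol vehicle (EtOH), and control siRNA with EtOH. R1881 is a synthetic androgen, given at 5 nM for 48 h from 42 h after transfection. All 4 groups were androgen-deprived for 48 h and all were transfected with an siRNA. The labels call the arrays of a group biological replicates without saying whether the cultures were separate, so the p-values speak only of how these arrays vary, which may be technical.

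SRF is a transcription factor that binds the CArG box, a short AT-rich element flanked by CC and GG, and drives actin and immediate-early genes together with cofactors that sense actin or growth factor signals. The androgen receptor is the main hormone-driven regulator of gene expression in LNCaP cells, and R1881 activates it. An siRNA guides cleavage of a matching messenger RNA and can also lower other transcripts that pair with its seed. The sequence and number of the siRNAs were not given in the sources used here, so no pairing with the members was examined, and with 1 silencing treatment in the design, the loss of SRF and any other action of its siRNA cannot be told apart.

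Facts of the whole series were as follows. Between 37.3% and 38.0% of probe sets per array lay above a log2 level of 4, and array medians ran from 2.97 to 3.06. Over the 21526 passing probe sets the correlation was 0.990 to 0.995 within a group and 0.885 to 0.961 between groups. All 8 luminal prostate markers with a probe set passed, at group means of 5.80 to 14.9. No leukocyte marker passed, of 3 with a probe set. Among 4 markers of basal or mesenchymal lines only VIM passed, and KRT5, KRT14 and CAV1 lay near background. The summed log2 level of these 4 was 15.5 with SRF siRNA and 13.3 with control siRNA in R1881, and 14.8 with SRF siRNA and 13.8 with control siRNA in EtOH. VIM alone read 8.25 against 6.31 in R1881 and 7.74 against 6.76 in EtOH (SRF siRNA against control siRNA). Of 5 fibroblast markers COL1A1 and COL3A1 passed, and the summed level was 17.8 against 16.99 in R1881 and 21.4 against 20.1 in EtOH (SRF siRNA against control siRNA). COL3A1 read 4.07 against 2.97 in R1881 and 7.91 against 6.45 in EtOH. COL1A1 was lower with SRF siRNA, at 5.69 against 6.02 and 5.56 against 5.70. The part of these marker levels in the falls was not tested. The difference between the 3′ and 5′ GAPDH control probe sets, a measure of RNA quality, was 0.49 ± 0.14 with SRF siRNA and 0.46 ± 0.02 with control siRNA in R1881 (SD, n = 3 each), with p = 0.8 by an exact permutation test, two-sided. In EtOH it was 0.36 ± 0.04 with SRF siRNA and 0.14 ± 0.09 with control siRNA (SD, n = 3 each), with p = 0.1 by the same exact test, which cannot go lower with 3 arrays on each side. Its part in the falls was not tested. In bulk RNA, fewer cells with a transcript and less of it per cell cannot be told apart.

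SRF set the depth that the members were held against. Its passing probe set (202401_s_at) read 4.89, 4.98 and 4.73 with SRF siRNA and 6.50, 6.25 and 6.16 with control siRNA in R1881. In EtOH it read 4.56, 5.06 and 4.58 with SRF siRNA and 5.91, 6.14 and 6.17 with control siRNA. The arrays of the 2 siRNAs did not overlap in either treatment. This probe set was dim, with control means of 6.30 in R1881 and 6.07 in EtOH. It therefore had less room to fall than the brighter members. The other SRF probe set (202400_s_at) did not pass the filter, and changed by -0.09 in R1881 and -0.11 in EtOH. SRF changed by -1.44 ± 0.14 in R1881 and by -1.34 ± 0.14 in EtOH on the log2 scale (SE of the fit), leaving 36.9% and 39.5% of the control signal. Its own RefSeq promoter (GRCh38.p14, chr6:43171019-43171268, plus strand) is shown because it carries the element that the members' promoters were searched for. The 250 bases before the start are printed 5′ to 3′, with 2 CArG boxes in capitals that begin 30 and 10 bases before the start:
SRF: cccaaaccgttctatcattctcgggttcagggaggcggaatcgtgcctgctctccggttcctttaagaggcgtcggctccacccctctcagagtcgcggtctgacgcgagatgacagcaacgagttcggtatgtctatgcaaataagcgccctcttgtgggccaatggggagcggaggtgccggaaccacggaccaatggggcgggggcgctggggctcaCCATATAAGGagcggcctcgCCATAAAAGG

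No CArG box was found in the promoters of the members. Windows from 250 bases before to 50 after each start were searched on both strands for CC, 6 bases that are A or T, then GG. Such a box occurred in 0 of the 14 windows of the 10 members, against 1.29% of the 35116 RefSeq windows. With so low a share over all windows, its absence from 14 windows says little about the members. The windows of 19 known SRF targets, such as actin and calponin genes, held it in 10 of 38 cases (26.3%), and those of the other genes that fell as far as SRF in 3 of 145 (2.07%). With 1 mismatch allowed, 2 member windows (14.3%) matched, against 18.9% of all windows. The full androgen response element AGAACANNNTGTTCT occurred in no member window and in 1 of all windows. The absence of these letters from a window of this length says nothing about binding elsewhere.

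All 10 members fell further than SRF in both treatments when each was represented by its passing probe set with the highest mean. Their falls ran from -4.77 to -1.82 in R1881, with a median of -2.77, and from -4.19 to -2.26 in EtOH, with a median of -2.75. Between 3.68% and 28.3% of the control signal was left in R1881 and between 5.49% and 20.9% in EtOH. Over all 10265 genes tested, the median change was 0.06 in R1881 and 0.04 in EtOH. The share of probe sets called lower at a Benjamini-Hochberg adjusted p under 0.05 in limma was 24.2% in R1881 and 22.7% in EtOH. Of the 25 passing probe sets of the members 24 had all silenced arrays below all control arrays in both treatments, as did 17.6% of all passing probe sets, and 23 fell at least as far as SRF in both, against 1.08% of all.

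**Figure D1:**
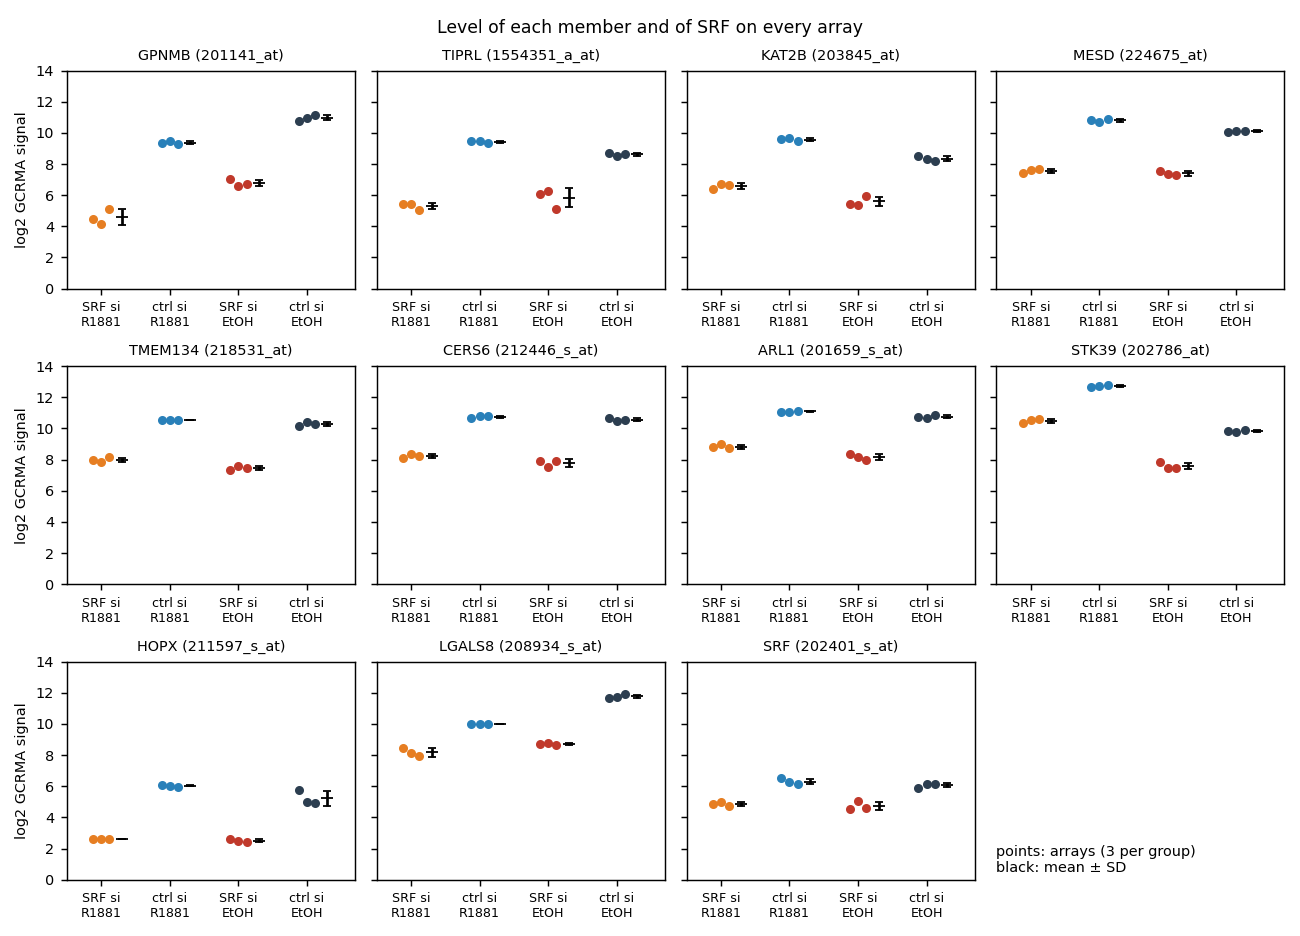
Log2 GCRMA signal of the probe set that stands for each member, and of SRF, on every array, with 3 points per group and the mean ± SD in black. In every panel the SRF siRNA arrays lie below the control siRNA arrays of the same treatment, and HOPX lies near background (about 2.5) with SRF siRNA.

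KAT2B and HOPX act on transcription. KAT2B encodes a lysine acetyltransferase (also called PCAF) that works in SAGA-type and ATAC complexes as a coactivator. Its only probe set (203845_at) read 6.40, 6.74 and 6.66 with SRF siRNA and 9.59, 9.66 and 9.46 with control siRNA in R1881, and 5.45, 5.39 and 5.96 with SRF siRNA and 8.51, 8.30 and 8.19 with control siRNA in EtOH. The gap of more than 2 log2 units was clear of the spread in both treatments, and KAT2B was 7.84-fold lower after silencing in R1881 and 6.64-fold lower in EtOH.

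HOPX encodes a small homeodomain protein that does not bind DNA and that, in the mouse heart, is known to antagonise SRF. Its passing probe set (211597_s_at) read 2.59, 2.61 and 2.59 with SRF siRNA and 6.09, 6.05 and 5.98 with control siRNA in R1881. In EtOH it read 2.62, 2.49 and 2.43 with SRF siRNA and 5.75, 4.96 and 4.93 with control siRNA. All 6 silenced arrays lay at the level of background, so the changes of -3.45 ± 0.17 in R1881 and -2.70 ± 0.17 in EtOH (SE) depend on the background estimate of GCRMA. With all values under 4 set to 4 they were -2.04 and -1.22, and the fall in EtOH was then smaller than that of SRF. Leaving out the first control EtOH array gave -2.43 in EtOH. The other 2 HOPX probe sets did not pass the filter.

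MESD, ARL1 and GPNMB encode proteins of the secretory and lysosomal compartments, and TMEM134 is given after them. MESD is a chaperone of the endoplasmic reticulum for receptors of the LDL receptor family. Its brightest probe set (224675_at) read 7.41, 7.62 and 7.68 with SRF siRNA and 10.80, 10.72 and 10.89 with control siRNA in R1881, and 7.58, 7.35 and 7.27 with SRF siRNA and 10.09, 10.13 and 10.15 with control siRNA in EtOH. Silenced and control arrays were more than 2 log2 units apart, with folds of 9.40 in R1881 and 6.60 in EtOH. A second probe set (224679_at) changed less, by -1.89 ± 0.09 in R1881 and -1.57 ± 0.09 in EtOH (SE). The other 3 stayed below the filter.

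ARL1 is a small GTPase of the trans-Golgi that recruits golgin tethers. Its 3 probe sets agreed closely. The brightest (201659_s_at) read 8.78, 8.98 and 8.72 with SRF siRNA and 11.06, 11.09 and 11.13 with control siRNA in R1881, against 8.35, 8.17 and 7.95 with SRF siRNA and 10.74, 10.65 and 10.86 with control siRNA in EtOH. It changed by -2.27 ± 0.11 and -2.59 ± 0.11 (SE) in R1881 and EtOH, 201658_at by -2.56 and -2.84, and 201657_at by -3.05 and -3.07.

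GPNMB is a glycoprotein of lysosomes and melanosomes and had the deepest mean fall of all 10265 genes. Its probe set 201141_at read 4.48, 4.18 and 5.14 with SRF siRNA and 9.37, 9.45 and 9.28 with control siRNA in R1881. In EtOH it read 7.03, 6.60 and 6.72 with SRF siRNA and 10.79, 10.99 and 11.13 with control siRNA. The signal was 27.2-fold lower after silencing in R1881 and 18.2-fold lower in EtOH. The dimmer probe set 1554018_at changed by -1.78 ± 0.27 in R1881 and -3.005 ± 0.27 in EtOH (SE), but its silenced R1881 arrays read 3.44, 3.38 and 4.32, near background, which limits how far it could fall from a control mean of 5.50. The GPNMB promoter (GRCh38.p14, chr7:23246525-23246774, plus strand) is shown because it holds 2 copies of CATGTG, a form of the E-box that MITF-family factors can bind, read here on the other strand as CACATG in capitals, 123 and 62 bases before the start:
GPNMB: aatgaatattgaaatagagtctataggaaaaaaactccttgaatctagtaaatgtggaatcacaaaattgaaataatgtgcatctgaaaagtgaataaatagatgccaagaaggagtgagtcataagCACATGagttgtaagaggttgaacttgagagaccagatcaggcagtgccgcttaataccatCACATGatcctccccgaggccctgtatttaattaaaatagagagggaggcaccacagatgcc
CATGTG occurred in 3 member windows (21.4%), those of GPNMB, CERS6 and HOPX, and in 11.1% of all windows, and CACGTG occurred in none of the members' and in 7.26% of all.

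TMEM134 encodes a transmembrane protein. Its passing probe set (218531_at) read 7.95, 7.86 and 8.14 with SRF siRNA and 10.53, 10.57 and 10.56 with control siRNA in R1881, against 7.36, 7.59 and 7.47 with SRF siRNA and 10.18, 10.40 and 10.30 with control siRNA in EtOH. The signal was 5.94-fold lower after silencing in R1881 and 7.06-fold lower in EtOH. Its other 2 probe sets lay near background.

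CERS6 and STK39 are neighbours in the genome. CERS6 is a ceramide synthase that prefers palmitoyl-CoA, and STK39 (also called SPAK) is a kinase that WNK kinases switch on and that phosphorylates cation chloride cotransporters. The STK39 probe set (202786_at) read 10.33, 10.51 and 10.57 with SRF siRNA and 12.65, 12.75 and 12.78 with control siRNA in R1881, and 7.83, 7.43 and 7.49 with SRF siRNA and 9.84, 9.78 and 9.90 with control siRNA in EtOH. Although the levels differed widely between treatments, the fold change after silencing was 4.77 lower in R1881 and 4.78 lower in EtOH. The brightest CERS6 probe set (212446_s_at) read 8.12, 8.34 and 8.21 with SRF siRNA and 10.69, 10.77 and 10.82 with control siRNA in R1881, and 7.90, 7.51 and 7.94 with SRF siRNA and 10.65, 10.49 and 10.54 with control siRNA in EtOH. It was 5.82-fold and 6.84-fold lower in R1881 and EtOH. The other CERS6 probe sets changed by -2.42 and -2.47 (212442_s_at), -1.97 and -1.60 (235463_s_at) and -3.04 and -2.58 (242019_at).

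Both genes lie on chromosome 2 with no other protein-coding gene between them. Their starts are 208.7 kb apart in the RefSeq table (GRCh38.p14), and they point in opposite directions, away from each other. The 250 bases before each start are shown, STK39 at chr2:168247596-168247845 on the minus strand and CERS6 at chr2:168456022-168456271 on the plus strand, because the pair fell together. CATGTG, 56 bases before the CERS6 start, is in capitals, and none of the searched motifs occurred in the STK39 window:
STK39: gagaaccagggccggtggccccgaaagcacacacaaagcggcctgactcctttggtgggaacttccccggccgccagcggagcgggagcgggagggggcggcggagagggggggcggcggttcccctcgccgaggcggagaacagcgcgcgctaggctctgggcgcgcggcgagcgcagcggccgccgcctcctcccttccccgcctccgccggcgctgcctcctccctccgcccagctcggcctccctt
CERS6: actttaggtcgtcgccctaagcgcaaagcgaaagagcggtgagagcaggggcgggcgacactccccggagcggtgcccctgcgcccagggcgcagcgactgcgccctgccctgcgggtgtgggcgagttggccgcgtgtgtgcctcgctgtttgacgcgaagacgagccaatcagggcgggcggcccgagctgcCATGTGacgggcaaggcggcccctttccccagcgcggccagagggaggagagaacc

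TIPRL binds the catalytic subunits of PP2A-type phosphatases. Its brightest probe set (1554351_a_at) read 5.43, 5.41 and 5.06 with SRF siRNA and 9.46, 9.49 and 9.37 with control siRNA in R1881. In EtOH it read 6.06, 6.29 and 5.14 with SRF siRNA and 8.70, 8.53 and 8.67 with control siRNA. The arrays of the 2 siRNAs were well apart, and the third silenced EtOH array lay about 1 unit below the other two. The changes were -4.14 ± 0.23 in R1881 and -2.80 ± 0.23 in EtOH (SE), or -2.46 in EtOH without that array. The other TIPRL probe sets changed by -3.91 and -3.31 (1553677_a_at), -2.70 and -2.22 (214773_x_at) and -2.49 and -2.15 (228619_x_at) in R1881 and EtOH. By the array maker's naming, the suffix _x_at marks probe sets whose probes may also match other transcripts.

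LGALS8 encodes galectin-8, a carbohydrate-binding lectin that marks damaged endosomes through the autophagy receptor CALCOCO2. Its brightest probe set (208934_s_at) read 8.47, 8.11 and 7.95 with SRF siRNA and 9.97, 10.001 and 10.02 with control siRNA in R1881. In EtOH it read 8.71, 8.75 and 8.63 with SRF siRNA and 11.67, 11.73 and 11.91 with control siRNA. The silenced arrays were lower in both treatments, by 3.53-fold in R1881 and 8.42-fold in EtOH, and the difference of the 2 changes was 1.25 ± 0.17 (R1881 minus EtOH, SE).

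The 6 LGALS8 probe sets did not all give the same picture in R1881. A further 3 probe sets, 208933_s_at, 208936_x_at and 208935_s_at, changed by -1.71, -1.87 and -1.59 in R1881 and by -2.81, -3.04 and -3.08 in EtOH. For 210732_s_at the change of -1.16 in R1881 was smaller than that of SRF, against -2.09 in EtOH. For 210731_s_at the arrays read 4.33, 4.23 and 4.54 with SRF siRNA and 4.55, 4.47 and 4.65 with control siRNA in R1881, which overlap, and the change was -0.19 ± 0.13 (SE). In EtOH this probe set read 4.36, 4.23 and 4.59 with SRF siRNA and 7.06, 6.64 and 6.89 with control siRNA, a change of -2.47 ± 0.13. It is the single passing member probe set whose silenced and control arrays overlapped.

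**Figure D2:**
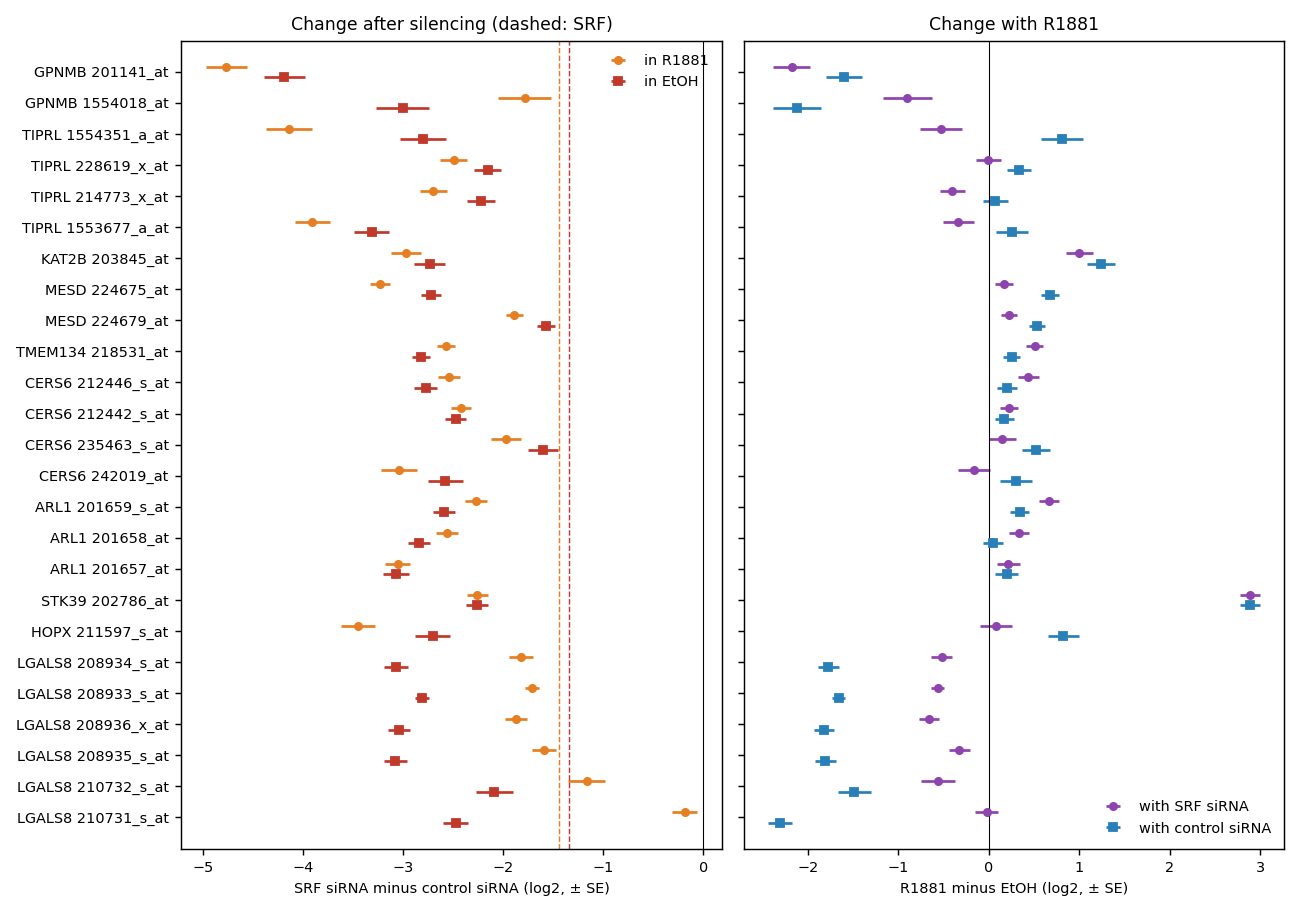
Left, change after SRF silencing (SRF siRNA minus control siRNA, log2, ± SE) for each passing probe set of the members, with SRF as dashed lines, and right, change with R1881 (R1881 minus EtOH, log2, ± SE) under each siRNA. LGALS8 210731_s_at lies at -0.19 in R1881 and -2.47 in EtOH after silencing, and STK39 has the largest R1881 change, 2.89 with either siRNA.

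R1881 raised some member probe sets and lowered others. The R1881 contrasts were not used to choose the members and were tested with limma over all 21526 passing probe sets. The effects under each siRNA are not independent of the falls used for that choice. Only the effect averaged over both siRNAs is orthogonal to both falls. The GAPDH difference between 3′ and 5′ probe sets was 0.49 ± 0.14 in R1881 and 0.36 ± 0.04 in EtOH with SRF siRNA (SD, n = 3 each, exact permutation p = 0.3) and 0.46 ± 0.02 in R1881 and 0.14 ± 0.09 in EtOH with control siRNA (SD, n = 3 each, exact permutation p = 0.1), and its part in the R1881 effects was not tested. After SRF silencing R1881 raised 6 and lowered 8 of the 25 member probe sets, and with control siRNA it raised 9 and lowered 8. All those lowered with control siRNA were probe sets of GPNMB and LGALS8. Of all passing probe sets R1881 raised 20.8% and lowered 26.7% after silencing, and raised 24.0% and lowered 31.8% with control siRNA. Averaged over both siRNAs, R1881 raised 10 and lowered 8 of the 25 member probe sets, against 27.3% and 36.6% of all. Probe sets of 1 gene are not independent, and LGALS8 alone holds 6 of the 25, so these counts do not give shares of genes. With 1 probe set per gene, 7 of the 10 members were called after silencing, 9 with control siRNA and 9 averaged. Of all 10265 genes 5453, 6225 and 7010 were called in these contrasts, in either direction.

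STK39 had the largest R1881 effect of the 10 standing probe sets. R1881 raised it by 2.89 ± 0.11 after SRF silencing and by 2.89 ± 0.11 with control siRNA (SE, limma adjusted p = 1.89e-09 and 1.39e-09). KAT2B rose by 1.00 ± 0.15 after silencing and 1.24 ± 0.15 with control siRNA (SE, limma adjusted p = 0.000222 and 2.83e-05). In both genes every R1881 array lay above every EtOH array of the same siRNA. The silenced R1881 level of STK39, 10.47 ± 0.13, was higher than its control EtOH level, 9.84 ± 0.06 (SD, n = 3 each).

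GPNMB and LGALS8 fell with R1881. GPNMB 201141_at changed by -2.18 ± 0.20 after silencing and -1.60 ± 0.20 with control siRNA (SE, limma adjusted p = 4.18e-06 and 3.70e-05). GPNMB 1554018_at changed by -0.90 ± 0.27 after silencing, near background (limma adjusted p = 0.0155), a call lost without silenced R1881 array 1 or 2 or silenced EtOH array 2 or 3 (limma adjusted p = 0.0596 to 0.0642), and by -2.12 ± 0.27 with control siRNA (limma adjusted p = 3.33e-05). After silencing 5 of the 6 LGALS8 probe sets fell, 208934_s_at by 0.52 ± 0.12 (SE, limma adjusted p = 0.0034), and with control siRNA all 6 fell, 208934_s_at by 1.78 ± 0.12 (limma adjusted p = 1.60e-07). The calls of 208935_s_at and 210732_s_at after silencing were lost without single arrays (without silenced EtOH array 2 or 3, silenced R1881 array 2 or 3 or control R1881 array 1, limma adjusted p = 0.0505 to 0.147, and without silenced EtOH array 1 or 2 or silenced R1881 array 3, limma adjusted p = 0.0643 to 0.0935). For 210731_s_at the change was -0.02 after silencing (limma adjusted p = 0.90), where it was already near 4.4, and -2.31 with control siRNA (limma adjusted p = 3.26e-08).

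R1881 effects on the remaining members were as follows. TMEM134 rose by 0.51 ± 0.09 after silencing and 0.26 ± 0.09 with control siRNA (SE, limma adjusted p = 0.000902 and 0.0355), and the second of these calls was lost under 7 of 22 alternative settings, among them leaving out control EtOH array 1 or 3 or any control R1881 array (limma adjusted p = 0.0639 to 0.123). ARL1 201659_s_at rose by 0.66 ± 0.11 and 0.34 ± 0.11 (SE, limma adjusted p = 0.000375 and 0.0189), the second being 0.0699 without control EtOH array 2 and 0.0574 without control R1881 array 3. Of the other ARL1 probe sets, 201658_at rose by 0.33 after silencing (limma adjusted p = 0.0289), a call lost without silenced R1881 array 2 or 3 or silenced EtOH array 3 (limma adjusted p = 0.0855 to 0.115), and changed by 0.05 with control siRNA (limma adjusted p = 0.728). The change of 201657_at was 0.21 after silencing and 0.20 with control siRNA (limma adjusted p = 0.189 and 0.212). The change of MESD 224675_at after silencing was 0.17 ± 0.10 (SE, limma adjusted p = 0.181), while it rose by 0.68 ± 0.10 with control siRNA (limma adjusted p = 0.000107). CERS6 212446_s_at rose by 0.44 ± 0.11 after silencing (SE, limma adjusted p = 0.00762), while its change with control siRNA was 0.20 ± 0.11 (limma adjusted p = 0.15). The CERS6 probe sets did not agree on this, since 235463_s_at changed by 0.15 after silencing (limma adjusted p = 0.449) and rose by 0.52 with control siRNA (limma adjusted p = 0.0117, or 0.0536 without control EtOH array 2), and 212442_s_at and 242019_at were called with neither siRNA. HOPX lay at background in both treatments after silencing, and rose by 0.83 ± 0.17 with control siRNA (SE, limma adjusted p = 0.00161).

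TIPRL differed between probe sets under R1881. The brightest, 1554351_a_at, changed by -0.53 ± 0.23 after silencing (SE, limma adjusted p = 0.0793), and rose by 0.81 ± 0.23 with control siRNA (limma adjusted p = 0.0105). Without the third silenced EtOH array the change after silencing was -0.88, with a limma adjusted p of 0.000257. Of the others only 214773_x_at was called, after silencing, at -0.41 ± 0.14 (SE, limma adjusted p = 0.0305). That call was lost without silenced EtOH array 1 or 2 or silenced R1881 array 1 or 3 (limma adjusted p = 0.0644 to 0.115).

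Across the 12 arrays the members followed one profile to different degrees. Pearson's r to their mean centred profile was 0.996 for MESD, 0.994 for CERS6 and TMEM134, 0.989 for ARL1, 0.988 for HOPX, 0.974 for TIPRL and 0.958 for KAT2B. It was lower for GPNMB (0.870), LGALS8 (0.822) and STK39 (0.697). Their R1881 effects averaged over both siRNAs were the 3 largest in size. That of LGALS8 (-1.15 ± 0.08, SE) was close in size to that of KAT2B (1.12 ± 0.11, SE). Between pairs of members r ran from 0.21 (STK39 and LGALS8) to 0.99. These values describe arrays that share the siRNA contrast the members were chosen on, and SRF itself had an r of 0.972. Outside the members the profile was most like that of SYT4, a synaptotagmin, and ADIPOR1, an adiponectin receptor, both at r = 0.997. ATP6AP1 and JTB followed at 0.995 and SLC35B3 at 0.994. These 5 genes fell less than the members' median, with changes of -2.11 and -1.77 in R1881 and EtOH for SYT4 and -0.88 and -0.82 for ATP6AP1.

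The members were not alone in falling as far as SRF. Of the 10265 genes 94 (0.916%) did so in both treatments, SRF included, so 83 genes lay beside the 10 members, and 111 genes (1.08%) rose in both at least as far as SRF fell. By the mean of both falls the members ranked from 1 (GPNMB) to 25 (STK39), with TIPRL at 3, HOPX at 5, MESD at 6, KAT2B at 8, TMEM134 at 10, CERS6 at 11, LGALS8 at 17 and ARL1 at 19. The rank of HOPX rests on silenced levels at background, and its falls shrink with a floor as given above. The prostaglandin F receptor gene PTGFR ranked between GPNMB and TIPRL, with changes of -3.63 in R1881 and -3.32 in EtOH. CRISP3, a cysteine-rich secretory protein, changed by -3.98 and -2.66, the microtubule protein gene MAP2 by -2.003 and -3.71, and the chemokine receptor gene CXCR4 by -1.87 and -3.20. With SRF siRNA the group means of CRISP3 (2.79 in R1881 and 3.16 in EtOH), MAP2 in EtOH (2.81) and PTGFR in R1881 (3.37) lay under the filter level, so these changes depend on the background estimate. With values under 4 set to 4 they were -2.76 and -1.82 for CRISP3, -2.52 for MAP2 in EtOH and -3.001 for PTGFR in R1881. LINC00161, AQP11, AZGP1, IDH1-AS1, CDS1 and RBM24 made up the rest of the 10 deepest genes outside the members. With SRF siRNA the means of IDH1-AS1 (3.83 in R1881 and 2.82 in EtOH) and RBM24 in EtOH (3.67) also lay under the filter level. Under alternative settings the change of IDH1-AS1 in EtOH was as small as -1.10, less than that of SRF. Apart from SRF itself, the shallowest of the 94 genes by mean fall was RWDD4, at -1.44.

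**Figure D3:**
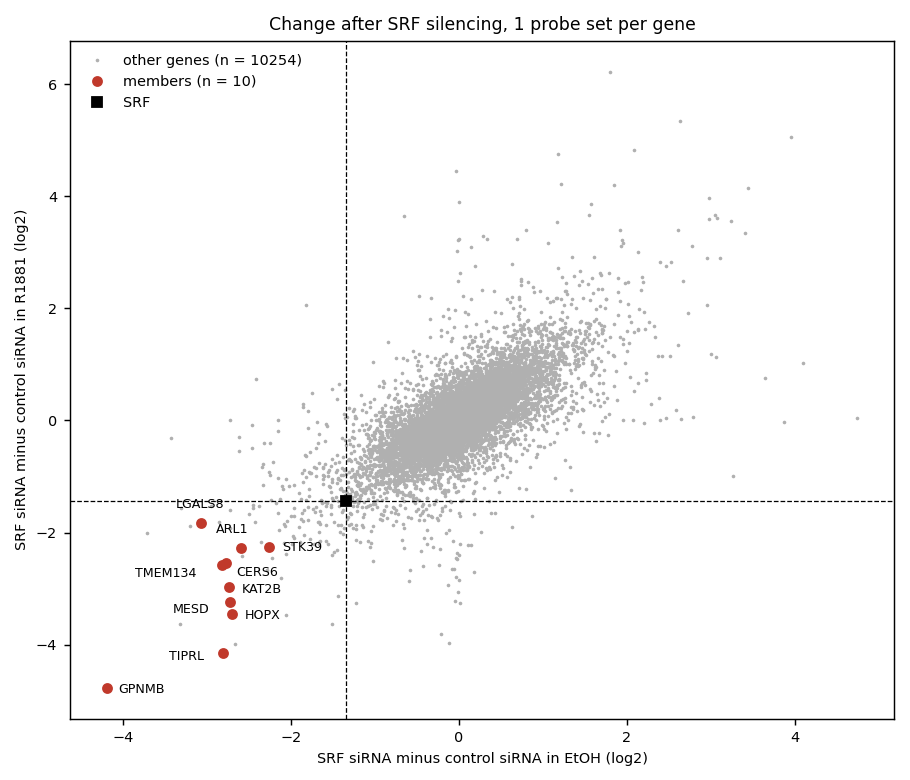
Change after SRF silencing in R1881 (y axis, log2) and in EtOH (x axis, log2), 1 point per gene, with members in red and SRF as a black square on the dashed lines. The 10 members lie below and to the left of SRF, among other genes that fell as far.

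Relatives and partners of the members did not fall as a body. Of 76 listed genes 61 were tested. Of these 17 fell and 22 rose in R1881 (background over all genes 24.5% lower and 32.4% higher), and 16 fell and 13 rose in EtOH (background 23.8% and 29.3%). Their median change was 0.10 in R1881 and 0.02 in EtOH, close to the medians of all genes. In both treatments 14 fell and 10 rose, but the share of all genes that did so was not counted, so no background stands beside these counts.

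Among these lists the ceramide and sphingolipid enzymes had the most falls. Of 10 tested, 6 fell and 2 rose in R1881, and 6 fell and 0 rose in EtOH by limma (1 rose at an unadjusted p under 0.05). The acid ceramidase gene ASAH1 changed by -1.47 and -1.63, and DEGS1, which makes the double bond of ceramide, by -0.83 and -1.72. CERS4, another ceramide synthase, changed by -1.27 and -1.38 ± 0.10 (SE, limma adjusted p = 8.11e-07 and 5.50e-07). CERS5, the closest relative of CERS6, fell in both, with changes of -0.34 and -0.31 (limma adjusted p = 0.00427 and 0.00856), while CERS2 did not pass (-0.09 and -0.12).

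Among ARL1 partners 2 fell and 4 rose in R1881, and 1 fell and 4 rose in EtOH, of 9 tested. SYS1, which helps bring the GTPase ARFRP1 to the Golgi, rose by 1.06 and 1.18, the golgin gene GCC2 rose by 0.63 and 0.98, and of the 2 arfaptin genes ARFIP1 rose by 0.86 and 0.69 while ARFIP2 changed by -1.26 and -0.77. In the WNK pathway around STK39, 3 genes fell and 3 rose in R1881, and 3 fell and 2 rose in EtOH, of 7 tested. WNK1 and WNK3 fell (-0.27 and -0.60 in R1881, -0.73 and -0.56 in EtOH), as did the cotransporter gene SLC12A2 (-0.45 and -0.43), while the scaffold gene CAB39 rose by 0.54 and 0.85 and WNK2 by 0.45 and 0.71 (limma adjusted p = 0.0174 and 0.00123). The R1881 call of WNK2 was lost without control R1881 array 1 or 2 (limma adjusted p = 0.0628 to 0.0781). OXSR1, the close paralog of STK39, did not pass, at 0.23 and 0.06 (limma adjusted p = 0.0733 and 0.669).

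SAGA and ATAC subunits, the partners of KAT2B, were all tested, 14 in number, and 1 fell and 7 rose in R1881 while 2 fell and 4 rose in EtOH. TRRAP rose by 0.88 and 0.55 and SUPT20H by 0.82 and 0.46, while TAF10 changed by -0.48 and -0.85. KAT2A, the paralog of KAT2B, rose by 0.50 in R1881 (limma adjusted p = 0.00622) and changed by 0.05 in EtOH (limma adjusted p = 0.791). Of the 7 PP2A-type genes around TIPRL, 3 fell in R1881 and 2 in EtOH, and 0 rose by limma (0 also at an unadjusted p under 0.05). IGBP1, which like TIPRL binds the catalytic subunits, changed by -0.75 and -0.24 (limma adjusted p = 1.63e-05 and 0.0352). The second call was lost without array 2 or 3 of either EtOH group (limma adjusted p = 0.0738 to 0.14). The catalytic subunit gene PPP2CA stood at 0.04 and 0.06.

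The list of the LDL receptor family, clients of MESD, and their chaperone LRPAP1 had 1 fall and 3 rises in R1881 and 1 fall and 1 rise in EtOH among 5 tested, and the fall in each was that of LRPAP1. LRP6, a Wnt co-receptor, rose by 0.87 and 0.50 (limma adjusted p = 0.000209 and 0.00901), and LRPAP1 changed by -0.31 and -0.28 (its EtOH call was lost without array 2 of either EtOH group, limma adjusted p = 0.0822 to 0.0855). PMEL, a melanosomal relative of GPNMB, changed by -1.62 and -0.89 (limma adjusted p = 0.000229 and 0.0127), and was the 1 gene of 5 tested in that list that fell. The PMEL means with SRF siRNA, 3.66 in R1881 and 3.85 in EtOH, lay under the filter level. Under alternative settings its changes were as small as -1.16 and -0.68, and the EtOH call was lost in 1 of 22. MITF did not pass, at 0.20 and -0.25 (limma adjusted p = 0.132 and 0.0633), and TFEB rose by 0.90 in R1881 (limma adjusted p = 0.000384). Neither tested gene of the galectin list, LGALS9 and CALCOCO2, was called by limma (0 also at an unadjusted p under 0.05), and LGALS1 and LGALS3 did not pass the filter. HDAC2, a partner of HOPX, rose by 0.50 and 0.27, the second call being lost without silenced EtOH array 2 (limma adjusted p = 0.0579).

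Known SRF targets were set beside the members. Of 24 listed, 12 were tested, of which 10 fell and 2 rose in R1881 and 4 fell and 3 rose in EtOH, with medians of -0.57 and -0.04. Over all genes 24.5% fell and 32.4% rose in R1881, and 23.8% fell and 29.3% rose in EtOH. The EtOH counts were thus near the background shares. ACTB, MYH9, VCL and TLN1, genes of actin, myosin and focal adhesions, fell in both, and TAGLN2 rose in both. The lowest value was -2.79 in R1881, for ACTA2, and -0.94 in EtOH, for TLN1. ACTA2 changed by -0.03 in EtOH (limma adjusted p = 0.828). Its means with SRF siRNA and control siRNA were 5.43 and 8.22 in R1881, and 5.54 and 5.57 in EtOH. R1881 raised it by 2.66 with control siRNA. The count of falls in EtOH was 2 without control EtOH array 2 or 3 or silenced EtOH array 3, where ACTB and MYH9 lost their call, and 2 without the third array of both silenced groups. TLN1 lost its call in R1881 without control R1881 array 1 or 2 or silenced R1881 array 2 (limma adjusted p = 0.0547 to 0.0633). The count of rises in R1881 was 1 without silenced R1881 array 2 or 3, control R1881 array 1, any silenced EtOH array, or control EtOH array 1 or 2, each left out alone.

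**Figure D4:**
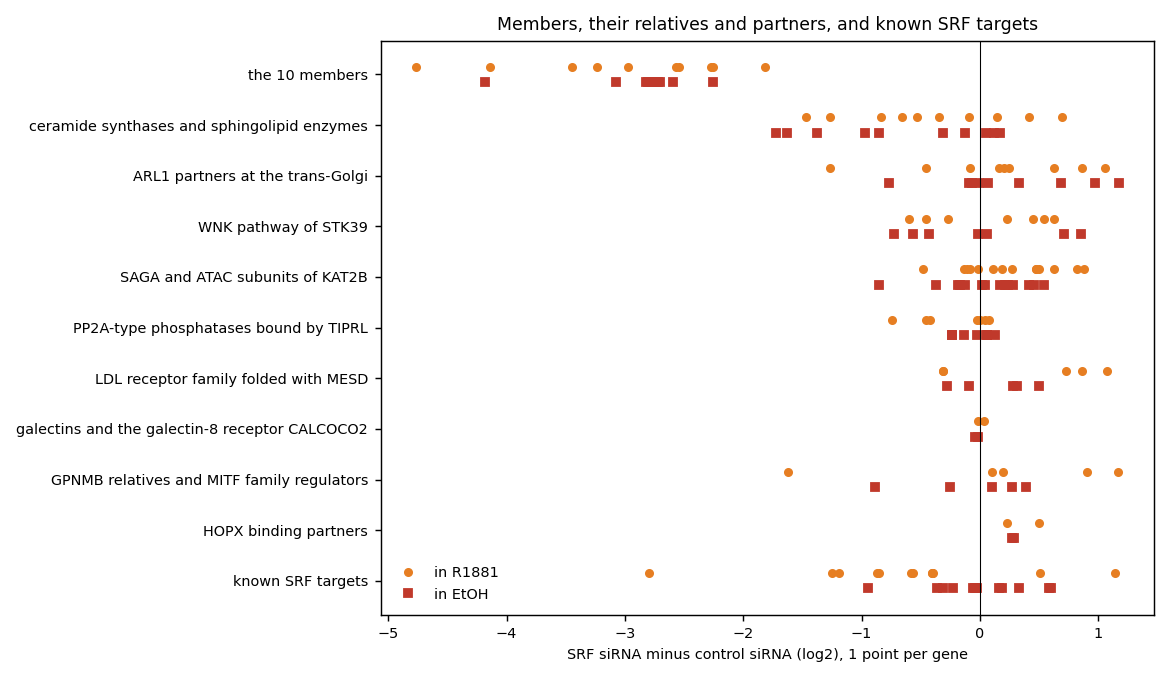
Change after SRF silencing (SRF siRNA minus control siRNA, log2) for the members and each tested gene of the lists, in R1881 and in EtOH, 1 point per gene. The relatives and partners lie on both sides of 0, with the ceramide and sphingolipid enzymes lowest in EtOH.

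Neighbours in gene order did not share the depth of the falls, apart from STK39 and CERS6, which are each other's neighbour. The nearest tested gene on each side of each member was taken, a choice made after values were seen. Of the 18 neighbours that are not members 7 fell and 4 rose in R1881, and 3 fell and 6 rose in EtOH. Over all genes 24.5% fell and 32.4% rose in R1881, and 23.8% fell and 29.3% rose in EtOH. The changes of these neighbours ran from -1.03 to 1.43 in R1881 and from -0.90 to 1.74 in EtOH, so none fell as far as SRF. Only 0.916% of all genes fell that far in both treatments, so the absence of such a fall among 18 genes says little. TLNRD1, next to MESD, changed by -1.03 and -0.90 (limma adjusted p = 2.60e-05 and 8.49e-05), and PITPNM1, the nearest tested gene on one side of TMEM134 with 1 coding gene between, by -0.50 and -0.69 (limma adjusted p = 0.000475 and 5.37e-05). SFT2D2, next to TIPRL, rose by 1.43 and 1.74 (limma adjusted p = 4.99e-07 and 1.41e-07). NOSTRIN, on the far side of CERS6, changed by -0.46 and -0.04 (limma adjusted p = 0.0389 in R1881), and GALNT3, the nearest tested gene on the far side of STK39 with 7 coding genes between, changed by 0.18 and 1.48 (limma adjusted p = 0.0673 and 5.77e-08).

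**Figure D5:**
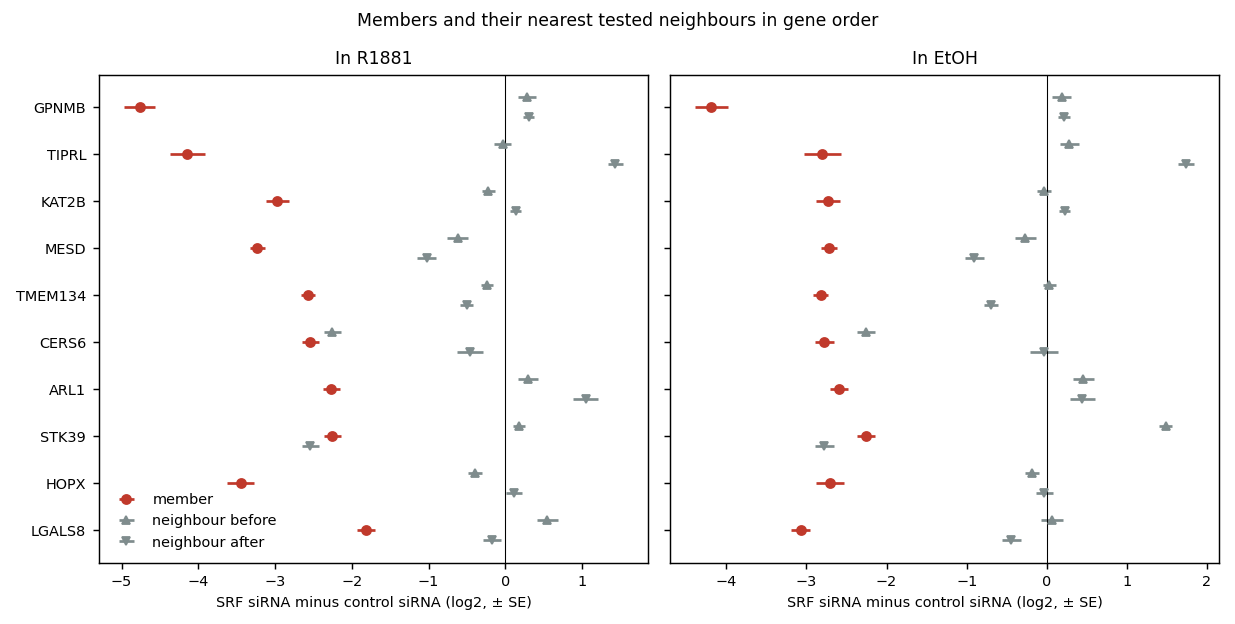
Change after SRF silencing (SRF siRNA minus control siRNA, log2, ± SE) of each member in red and of its nearest tested neighbours in gene order in grey, in R1881 and in EtOH. The grey points stay between -1.03 and 1.74 except where CERS6 and STK39 are drawn as neighbours of each other.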

How the data were processed

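The deposited values are log2 signals made with GCRMA per the submitters' processing notes (version not given in the sources used here), 1 per probe set and array, from 3.5 µg of total RNA per the labels. No depth applies, and the number of arrays limits the precision. Symbols came from the platform annotation, updated by gene number (41037 of 41091 probe sets with 1 symbol matched). Of 54675 probe sets 62 controls were left out, and 21526 had a log2 level above 4 on at least 3 arrays. Each of 10265 genes was represented by its brightest passing probe set. A model with 1 mean per group was fitted to all 12 arrays with limma 3.58.1 in R 4.3.3, with Benjamini-Hochberg adjustment over the passing probe sets and a threshold of 0.05, and was tested on simulated data. SE is its moderated standard error. Lists were written from general knowledge. Named genes were all member probe sets, SRF, the 10 deepest other genes, the 5 most alike, and list genes, first those called in both treatments, then close paralogs; list genes called in 1 treatment, ACTA2, PPP2CA and the neighbours were named after their values were seen. The members and lists were chosen with earlier results of these data known. Same-numbered arrays did not deviate together (r from -0.18 to 0.19, above 0.1 in 2 of 18 pairs), so the numbers were not taken as pairs. Alternatives changed the filter, floor, scaling, probe set per gene, variance model, arrays and threshold. Promoters came from RefSeq (GRCh38.p14). Figures used matplotlib 3.10.9 in Python 3.11.15.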

Additional observations from a re-analysis of the deposited data

Results flagged for a closer look

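TIPRL 1553677_a_at moved in opposite directions with R1881 in the presence of the 2 siRNAs, with no overlap of arrays in either. The R1881 effect was -0.34 with SRF siRNA (R1881 3.61, 3.59 and 3.57, EtOH 3.69, 4.45 and 3.63) and 0.26 with control siRNA (R1881 7.49, 7.61 and 7.39, EtOH 7.21, 7.19 and 7.32). Neither passed the limma test (adjusted p = 0.133 and 0.231), the silenced arrays lay near background, and the difference between the effects was not tested.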

How the results depend on the processing

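No called result that was checked changed sign. Member probe sets called for R1881 after silencing numbered 14 in the reported fit, 9 with no filter and 9 with only the groups of the contrast. With 1 probe set per gene, which leaves 10 member probe sets, 7 were called after silencing, 9 with control siRNA and 9 averaged, and the probe sets called were 6058 and 5717 (silencing in R1881 and EtOH), 2441 (their difference), 5453 and 6225 (R1881 after silencing and with control siRNA) and 7010 (averaged), because fewer were tested. With values under 4 set to 4 the members' median change in R1881 was -2.56. Known SRF targets higher in R1881 numbered 1 with no filter, with a filter of 5, with arrays shifted to 1 median, with quantile normalization, with only the groups of the contrast, without the third array of both silenced groups and at an adjusted p under 0.01, and those lower in EtOH numbered 2 under the last 3. Leaving out single arrays gave 1 to 2 and 2 to 4 for these counts, and 80 to 105 genes as deep as SRF. It gave 10 to 14 member probe sets called for R1881 after silencing, 15 to 18 with control siRNA and 17 to 19 averaged. With the replicate number as a block, TIPRL 214773_x_at and LGALS8 208935_s_at lost their call after silencing (limma adjusted p = 0.0521 and 0.0623). CERS6 212442_s_at lost its averaged call (0.056) and IGBP1 its call in EtOH (0.0509). No other call changed among the members, the list genes called in both treatments in the same direction and the close paralogs. The remaining list genes were not checked one by one under the alternatives. Over single probe sets and genes and all alternatives, 94 values lost their call, 36 gained one, 26 untested values moved and 4946 stayed on their side of the threshold or, untested, within the spread of arrays; the causes were not tested. Low signals limit HOPX, TIPRL 1553677_a_at, LGALS8 210731_s_at, GPNMB 1554018_at, CRISP3, MAP2, PTGFR, IDH1-AS1, RBM24 and PMEL.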
